A study of Rattus norvegicus with 27 samples.

Results

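The genes described here are the cannabinoid receptor and the enzymes that make and break down the endocannabinoids in the rat brain, namely Cnr1, Dagla, Daglb, Mgll, Abhd6, Abhd12, Napepld and Faah. They were chosen by symbol, not by their values, and make up 8 of the 36865 rows of the count table. RNA sequencing was performed on the medial prefrontal cortex (mPFC) of 27 adult male Wistar rats, 1 library per rat. The rats had passed through repeated anxiety tests and every second animal on a composite anxiety scale was taken, in a resting state and directly from the home cage. All belong to a single group with no controls, and per-rat anxiety scores were not used here. The paper describes 2 cohorts of male Wistar rats for this part, and the cohort of each library is not among the labels used here. The labels list learned helplessness as the treatment and a TruSeq library, whereas the methods describe anxiety tests and a NEBNext Ultra II library, and the 2 sources also give different section levels. What can be compared is how high each gene was in each rat, how far the rats differed, and which genes moved together.

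Endocannabinoids are lipids that neurons make on demand in the postsynaptic membrane and that travel backwards across the synapse to the CB1 receptor, the product of Cnr1, which lowers transmitter release. The diacylglycerol lipases Dagla and Daglb make 2-arachidonoylglycerol (2-AG), and the hydrolases Mgll, Abhd6 and Abhd12 break it down. Napepld makes anandamide and related N-acylethanolamines, and Faah hydrolyses them. In the cortex the CB1 receptor is known for its high level on the endings of cholecystokinin interneurons and its lower level on those of excitatory neurons.

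Mgll and Napepld were the most variable of the enzymes and were called as moving together, a call that ended under some other settings given below. Abhd6 and Abhd12 were the steadiest. The promoters of these 4 genes are shown for that reason, and their relation to expression was not tested. They are RefSeq sequences of the assembly GRCr8, the 250 bases before the start of the gene, 5′ to 3′ on the strand of the gene. Capitals mark each GC box, with the letters GGGCGG on either strand, so that its reverse complement is in capitals too. The Mgll promoter is at chr4:122749186-122749435 on the plus strand, that of Napepld at chr4:14253010-14253259 on the plus strand, that of Abhd6 at chr15:19337194-19337443 on the minus strand and that of Abhd12 at chr3:160179930-160180179 on the minus strand.
Mgll: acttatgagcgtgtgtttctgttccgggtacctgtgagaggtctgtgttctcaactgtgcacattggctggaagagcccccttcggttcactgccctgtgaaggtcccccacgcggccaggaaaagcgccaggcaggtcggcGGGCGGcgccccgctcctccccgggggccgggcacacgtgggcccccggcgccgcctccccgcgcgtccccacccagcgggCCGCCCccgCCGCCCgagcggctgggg
Napepld: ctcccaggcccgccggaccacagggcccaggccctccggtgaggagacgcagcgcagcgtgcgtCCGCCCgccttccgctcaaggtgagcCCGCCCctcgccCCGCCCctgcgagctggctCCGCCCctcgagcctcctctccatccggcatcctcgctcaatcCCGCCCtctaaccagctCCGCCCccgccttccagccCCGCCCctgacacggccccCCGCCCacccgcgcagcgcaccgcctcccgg
Abhd6: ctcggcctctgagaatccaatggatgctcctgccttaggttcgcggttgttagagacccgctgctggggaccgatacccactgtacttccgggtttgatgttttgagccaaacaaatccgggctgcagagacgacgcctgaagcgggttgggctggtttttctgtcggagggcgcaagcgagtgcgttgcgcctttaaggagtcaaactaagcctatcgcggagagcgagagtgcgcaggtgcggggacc
Abhd12: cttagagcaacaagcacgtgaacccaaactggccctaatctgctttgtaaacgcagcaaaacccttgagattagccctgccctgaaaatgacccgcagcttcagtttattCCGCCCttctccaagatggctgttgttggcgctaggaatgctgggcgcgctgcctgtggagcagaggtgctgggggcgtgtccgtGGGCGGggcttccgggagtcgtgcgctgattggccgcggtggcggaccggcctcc
Napepld held 8 GC boxes in this window, Mgll held 3, Abhd12 held 2, and Abhd6 held 0, while 30.5% of 33469 promoters of the same length held at least 1. The promoters of these genes were rich in CG dinucleotides, with 29 in Napepld, 26 in Mgll, 20 in Abhd6 and 17 in Abhd12 against a median of 5 over all promoters. Besides the GC box, 4 other motifs were searched on both strands. The E-box CACGTG occurred once each in Mgll and Abhd12 and in 5.59% of all promoters, and the CCAAT box occurred once each in Mgll, Abhd6 and Abhd12 and in 34.02% of all promoters. Neither the core of the cAMP response element, with the letters TGACG (18.2% of all promoters), nor the TATA box, with the letters TATAAA (12.9%), occurred in these 4 windows. The promoter of Daglb, not printed here, held 1 TGACG, 1 TATAAA, 0 GC boxes and 15 CG dinucleotides. Such matches describe the letters only and do not show that a factor binds there. RefSeq promoters were matched for 6 of the 8 genes, and Cnr1 and Dagla were not among them.

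Libraries held 4907255 to 12771309 counted reads (median 8168801). The number in the library name parted these totals into 2 depth blocks, 16 libraries numbered up to 31 with at most 8568317 reads and 11 libraries numbered from 32 with at least 9404220 reads, and libraries are named here by that number. Library 3 stood apart. It had the second lowest total, 5654175 reads, the lowest excitatory neuron and GABAergic neuron marker scores of the 27 libraries, at -2.86 and -2.26 SD from the mean, and the highest oligodendrocyte and astrocyte scores, at 2.40 and 2.17 SD. Markers of cortical neurons were present in every library except Sst, a marker of somatostatin interneurons, which was listed at 0 throughout. In the dissected tissue, fewer cells of a type and less RNA per cell cannot be told apart. All p-values measure the spread between these rats.

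Faah, with the NCBI gene ID 100911581, was listed at 0 in all 27 libraries. Because the table also lists Sst at 0, this is stated only as a listing, and whether reads of Faah were counted on another row was not tested. The other 7 genes had reads in every library and passed the filter on low counts. Their levels are given as read counts normalized by DESeq2 size factors and were not divided by transcript length, so no order of levels between genes is given, and ratios of reads between genes are compared only between rats.

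Cnr1 (gene ID 25248), the receptor, had a lowest level of 2010 normalized counts in library 26, a median of 2732 and a highest level of 3554 in library 12 (mean 2733 ± 389 SD, n = 27). The highest library thus held 1.77 times the level of the lowest. The libraries up to 31 (2010 to 3554) covered the whole range of those from 32 (2143 to 3022).

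Of the enzymes that make 2-AG, Dagla (gene ID 309207), the main synthase at synapses of the adult brain, ranged from 947 normalized counts in library 3 to 1515 in library 32, with a median of 1295 (mean 1295 ± 129 SD, n = 27). Daglb (gene ID 304289), its paralog, ranged from 322 in library 9 to 478 in library 54, with a median of 392 (mean 396 ± 36.6 SD, n = 27). The ratio of Dagla reads to Daglb reads was lowest in library 3 at 2.43 and highest in library 31 at 3.82.

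Of the enzymes that break down 2-AG, Mgll (gene ID 29254), which encodes monoacylglycerol lipase, the main 2-AG hydrolase of the brain, varied most. It ranged from 460 normalized counts in library 3 to 1196 in library 26, with a median of 786 (mean 821 ± 184 SD, n = 27), a ratio of 2.60 between the extremes. Abhd6 (gene ID 305795), a membrane hydrolase of postsynaptic sites, ranged from 729 in library 3 to 942 in library 53, with a median of 824 (mean 838 ± 52.03 SD, n = 27). Abhd12 (gene ID 499913), a lipase that also acts on lysophosphatidylserine, ranged from 1851 in library 51 to 2204 in library 3, with a median of 2033 (mean 2016 ± 77.7 SD, n = 27). The balance of reads between hydrolases therefore differed between rats. The ratio of Mgll reads to Abhd6 reads ran from 0.529 in library 18 to 1.43 in library 5, and that of Cnr1 reads to Mgll reads from 1.68 in library 26 to 6.54 in library 18. The size of such a ratio also depends on transcript length, which was not corrected.

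Napepld (gene ID 296757), the phospholipase D that releases anandamide from its membrane precursor, had the fewest reads, between 24 and 92 per library. It ranged from 36.7 normalized counts in library 3 to 85.1 in library 12, with a median of 56.5 (mean 55.6 ± 11.4 SD, n = 27). Library 3 was lowest for Mgll, Dagla, Napepld and Abhd6 and highest for Abhd12, while it was the 4th lowest for Cnr1 and the 11th lowest for Daglb.

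**Figure D1:**
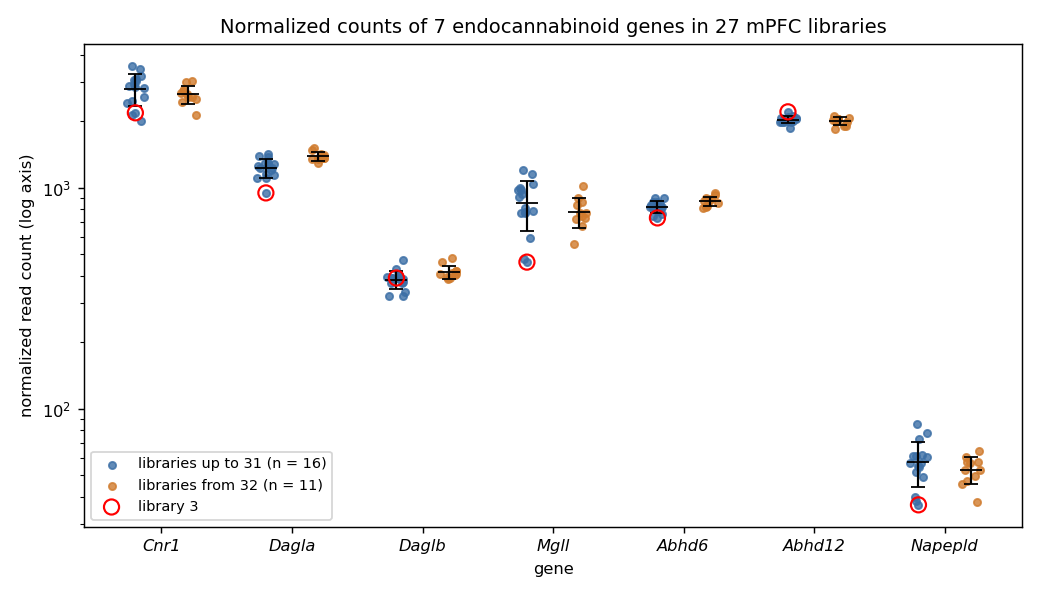
Normalized read counts (vertical log axis, not divided by transcript length) of the 7 detected genes in each of the 27 libraries, with libraries up to 31 in blue (n = 16), libraries from 32 in orange (n = 11), and the mean and SD of each block in black. Abhd12 stays between 1851 and 2204, Mgll spreads from 460 to 1196, and library 3, ringed in red, is the lowest point for 4 genes and the highest for Abhd12.

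The libraries differed by more than Poisson counting noise in all 7 detected genes (chi-square dispersion test, adjusted over all genes), but the same held for 89.8% of the 11730 genes tested. The 7 genes therefore differ by where they rank among all genes. The SD of the log2 level was 0.06 for Abhd12, and 10 of 11716 genes had a smaller one (0.0854%). Of the 886 genes with a mean at or above that of Abhd12, 8 had a smaller SD. With edgeR's TMM scaling 14 genes and with total counts 3 genes were steadier than Abhd12. Abhd6 followed with an SD of 0.09, and 4.62% of genes had a smaller one. Daglb and Dagla had SDs of 0.13 and 0.15, below those of most genes, with 24.01% and 32.7% of genes steadier than they were. Cnr1 stood near the middle with an SD of 0.21 (56.0% of genes steadier), and Napepld and Mgll in the upper part with 0.29 and 0.34 (73.3% and 79.4%). Counting noise accounted for 43.9% of the variance in Napepld, 34.4% in Abhd12 and 2.51% in Mgll. The biological coefficient of variation estimated by edgeR, which leaves counting noise out, placed Abhd12 at the 1.14th, Abhd6 at the 2.94th, Napepld at the 71.1th and Mgll at the 86.5th percentile of all genes.

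**Figure D2:**
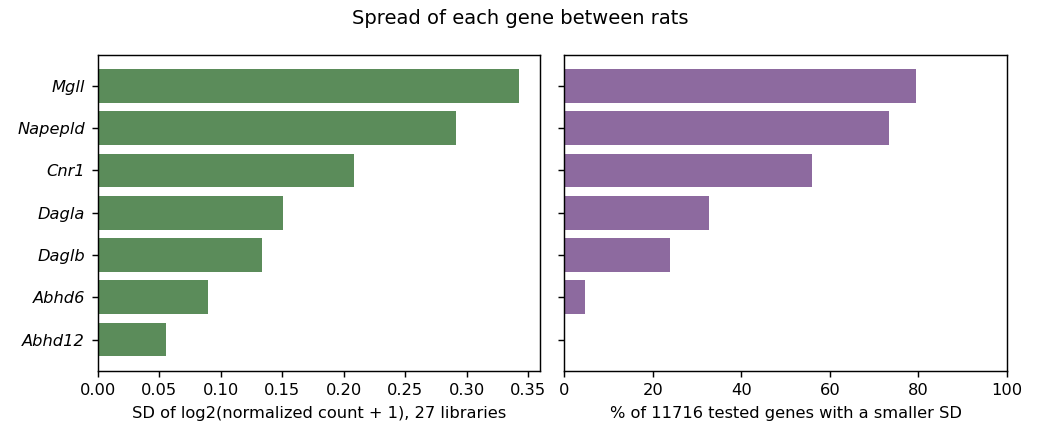
SD of the log2 level of each gene over the 27 libraries (left) and the percent of the 11716 tested genes with a smaller SD (right), 1 bar per gene. Mgll is the most variable with an SD of 0.34, and Abhd12 the steadiest with 0.06, where the right bar, 0.0854%, is too short to see.

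Between the depth blocks, 18.1% of all genes differed by edgeR's quasi-likelihood test, and of the 7 genes Dagla alone was called. Its level was 1229 ± 122 normalized counts in the 16 libraries up to 31 (947 to 1422) and 1390 ± 64.1 in the 11 from 32 (1295 to 1515), so that the blocks overlapped. The log2 difference was 0.18 (SE 0.046, edgeR adjusted p = 0.00561). Abhd6 and Daglb had log2 differences of 0.09 and 0.12 (edgeR adjusted p = 0.0780 and 0.0792). Without library 26 Abhd6 was called as well, and without libraries 12 and 20 Daglb was. The median log2 difference of the 7 genes was -0.02 and that of all genes 0.01. The depth block was therefore kept as a term in the fits that follow. Whether the blocks follow the cohorts of the study is not known, so depth and cohort cannot be told apart here.

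The levels of 4 of the 7 genes rose with the excitatory neuron score, the mean standardized level of markers that include Slc17a7, Camk2a, Neurod6, Nrgn and Tbr1, with which 27.2% of all genes were called. The median log2 change per SD of the score was 0.09 over the 7 genes and -0.01 over all genes. Napepld rose most, by a log2 change of 0.24 per SD of the score (SE 0.044, edgeR adjusted p = 2.62e-04). Mgll rose by 0.17 (SE 0.060, edgeR adjusted p = 0.0312), Cnr1 by 0.14 (SE 0.032, edgeR adjusted p = 0.00184) and Dagla by 0.09 (SE 0.019, edgeR adjusted p = 9.73e-04). These are the receptor, the main 2-AG synthase, the main 2-AG hydrolase and the anandamide synthase. Daglb and Abhd6 had log2 changes of 0.03 each (edgeR adjusted p = 0.421 and 0.233), and Abhd12 had 0.00 (SE 0.015, edgeR adjusted p = 0.932). Mgll was no longer called with no block term (log2 change 0.13, edgeR adjusted p = 0.106). Without library 3, Mgll was not called either (log2 change 0.11, edgeR adjusted p = 0.181). Napepld, Cnr1 and Dagla still were, at log2 changes of 0.21, 0.12 and 0.06 (edgeR adjusted p = 0.00213, 0.02 and 0.0256). The genes called in all then numbered 1496 of 11713 instead of 3187 of 11710. Within the 11 libraries from 32 none of the 7 genes was called, where 29 of 11307 genes were called in all and 2 of the 7 had an unadjusted p under 0.05. The log2 changes there were 0.17 for Napepld, 0.11 for Cnr1, 0.07 for Mgll and 0.03 for Dagla. Within the 16 libraries up to 31 all 4 were called.

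With the GABAergic neuron score (markers that include Gad1, Gad2, Slc32a1, Pvalb and Sst, the last at 0 and without effect), 19.5% of all genes and 2 of the 7 were called. The genes called in all numbered 2282 over the 27 libraries, 1068 without library 3, 846 without libraries 12 and 20, and 0 by edgeR in the libraries from 32, where 516 had an unadjusted p under 0.05. Cnr1 rose by a log2 change of 0.13 per SD (SE 0.031, edgeR adjusted p = 0.00410) and Napepld by 0.15 (SE 0.052, edgeR adjusted p = 0.0456). The log2 change of Cnr1 was 0.18 in the libraries up to 31 (edgeR adjusted p = 0.00709) and 0.03 in those from 32 (edgeR adjusted p = 0.999), and that of Napepld was 0.18 and 0.10 (edgeR adjusted p = 0.092 and 0.999). Without libraries 12 and 20, the 2 with the highest Cnr1 levels (3554 and 3451 normalized counts), neither was called, at log2 changes of 0.10 for Cnr1 and 0.12 for Napepld (edgeR adjusted p = 0.0634 and 0.18). Without library 3, Napepld was not called (log2 change 0.12, edgeR adjusted p = 0.133), nor was it with no filter on low counts (0.15, edgeR adjusted p = 0.0603) or no block term (0.14, edgeR adjusted p = 0.0752). Library 3 was the lowest of all in both neuronal scores, and the part of neuronal content in these relations was not tested.

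For the other 7 marker lists none of the 7 genes was called by edgeR over the 27 libraries. The background was 0.00854% of all genes for interneurons of the caudal ganglionic eminence (CGE; Sncg, Htr3a, Vip, Cxcl14, Adarb2 and Lamp5), 0.00854% for striatal projection neurons, 3.31% for oligodendrocytes, 1.78% for astrocytes, 0.606% for microglia, 0.222% for endothelial cells and 2.48% for meningeal fibroblasts. Of these 49 tests 6 had an unadjusted p under 0.05, and DESeq2's Wald test called 1 of them, Dagla against the oligodendrocyte score. In edgeR Dagla had a log2 change of -0.07 per SD of that score (SE 0.021, edgeR adjusted p = 0.0588). Mgll had a log2 change of 0.13 per SD of the astrocyte score (SE 0.060, edgeR adjusted p = 0.329) and of 0.12 per SD of the microglia score (SE 0.057, edgeR adjusted p = 0.497). Without library 3, which had the highest astrocyte score, Mgll was called with the astrocyte score (log2 change 0.18, SE 0.043, edgeR adjusted p = 0.0245). Cnr1 had a log2 change of 0.02 per SD of the CGE score (SE 0.039, edgeR adjusted p = 0.961). Interneurons of this origin include the cholecystokinin cells named above. The gene of cholecystokinin is not among the listed markers, so the score does not single those cells out. The summed level of the CGE markers ranged from 2815 to 3867 normalized counts between libraries, against 16558 to 59785 for the oligodendrocyte markers.

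**Figure D3:**
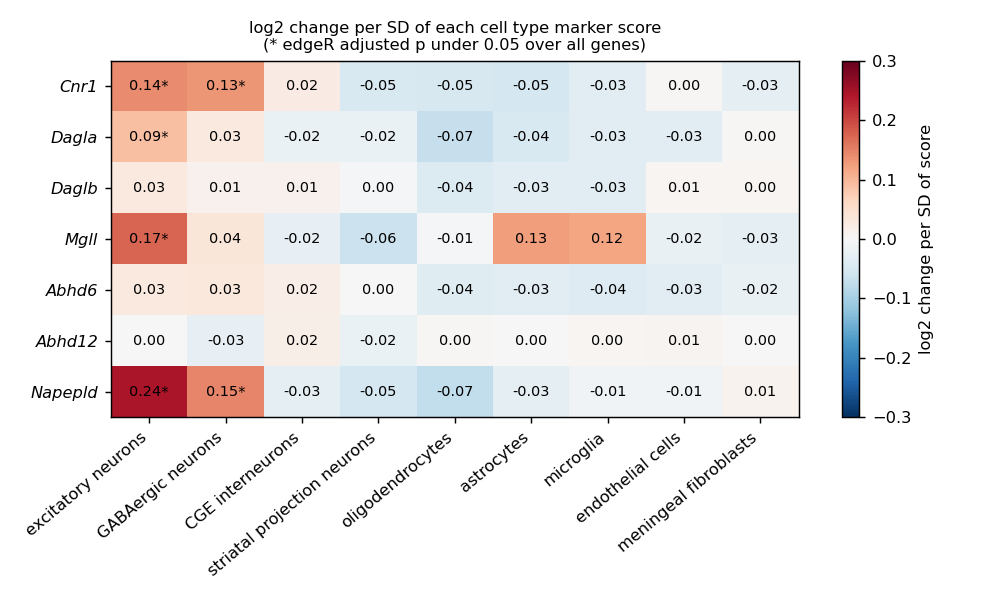
Log2 change of each gene (rows) per SD of each of the 9 cell type marker scores (columns), from the edgeR fits with the depth block as a term, with red for higher, blue for lower and an asterisk where the edgeR adjusted p over all genes is under 0.05. The 6 asterisks lie in the excitatory and GABAergic neuron columns, the largest value being 0.24 for Napepld.

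The 7 genes give 21 pairs, and the permutation p-values given below are not adjusted for the number of pairs. Spearman's rho between their levels ranged from -0.29 to 0.59 with a median of 0.04, 12 pairs being positive, and 11 pairs had the same sign in both depth blocks. A pair was called where the edgeR fit of each gene on the level of the other passed the threshold over all genes with the same sign. With the level of Cnr1 28% of all genes were called, with Mgll 22.5%, with Dagla 27.4%, with Napepld 28.2% and with Abhd12 11.9%. Without library 3 the genes called numbered 3074 with Cnr1, 1162 with Mgll, 972 with Dagla, 1714 with Napepld and 4 with Abhd12, against 3284, 2636, 3207, 3309 and 1392 over all libraries. With Abhd12 none was called in the libraries up to 31 and 2 were in those from 32. With the level of Daglb and of Abhd6 it was 0.0% for each by edgeR, where 685 and 1212 genes had an unadjusted p under 0.05 and DESeq2 called 1 and 0. With no depth block term edgeR called 9 genes with Daglb and 307 with Abhd6, and in the libraries from 32 alone it called 49 with Daglb. Of the 21 pairs 4 were called, all positive and 3 of them with Napepld. The shares of all genes given above are the background of these calls, and whether the pairs exceed it was not tested.

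The levels of Cnr1 and Napepld were correlated. Spearman's rho was 0.59 over the 27 libraries (two-sided permutation p = 0.00143) and Pearson's r 0.54 (permutation p = 0.00351). Spearman's rho was 0.56 in the libraries up to 31 and 0.68 in those from 32, and r was 0.51 without libraries 26 and 12, the farthest from the median of Cnr1. Napepld rose by a log2 change of 0.15 per SD of Cnr1 (SE 0.050, edgeR adjusted p = 0.0242). Without libraries 12 and 20 the pair was not called, at a log2 change of 0.12 for Napepld per SD of Cnr1 (edgeR adjusted p = 0.104) and of 0.08 for Cnr1 per SD of Napepld (edgeR adjusted p = 0.0721).

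Mgll and Napepld had a rho of 0.54 (permutation p = 0.00407) and an r of 0.60 (permutation p = 0.0010). Within the blocks rho was 0.47 and 0.42, and r was 0.53 without libraries 3 and 18. Napepld rose by a log2 change of 0.17 per SD of Mgll (SE 0.052, edgeR adjusted p = 0.0203).

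Dagla with Mgll and Dagla with Napepld were called over the 27 libraries with the block as a term and not without it. Their pooled rho was 0.15 (permutation p = 0.448) and 0.25 (permutation p = 0.214), with r of 0.43 (permutation p = 0.0263) and 0.44 (permutation p = 0.0227), and centring each block raised rho to 0.53 and 0.58. In the libraries up to 31 rho was 0.57 for Dagla with Mgll and 0.62 for Dagla with Napepld, and in those from 32 it was 0.27 for each. Pooled r was 0.06 for Dagla with Mgll without libraries 3 and 18 and 0.16 for Dagla with Napepld without libraries 3 and 19. With each block centred, r was 0.65 and 0.68 over the 27 libraries and 0.44 and 0.51 without those libraries, so the pooled relation rested on them and the centred one was smaller without them. Mgll rose by a log2 change of 0.27 per SD of Dagla (SE 0.066, edgeR adjusted p = 0.00318) and Napepld by 0.25 (SE 0.062, edgeR adjusted p = 0.00339).

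Without library 3, none of the 4 pairs was called by edgeR. The log2 changes kept their sign and were all smaller. Per SD of Cnr1, Napepld changed by 0.13 (edgeR adjusted p = 0.0618), and per SD of Mgll it changed by 0.13 (edgeR adjusted p = 0.118). Per SD of Dagla, Mgll changed by 0.18 (edgeR adjusted p = 0.0907) and Napepld by 0.20 (edgeR adjusted p = 0.0512). In the other direction, Dagla was still called with the level of Napepld (0.06, edgeR adjusted p = 0.0345), while Cnr1 (0.09) and Mgll (0.14) were not (edgeR adjusted p = 0.0813 and 0.0778), nor was Dagla with the level of Mgll (0.05, edgeR adjusted p = 0.104). Spearman's rho was then 0.56 for Cnr1 with Napepld and 0.48 for Mgll with Napepld, but 0.05 for Mgll with Dagla and 0.16 for Dagla with Napepld, where with each block centred it was 0.44 and 0.49. In the 11 libraries from 32 alone no pair was called, and in the 16 up to 31 the pairs of Dagla with Mgll and with Napepld were. The 4 genes of these pairs are also the 4 called with the excitatory neuron score, and the part of that score in the pairs was not tested.

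**Figure D4:**
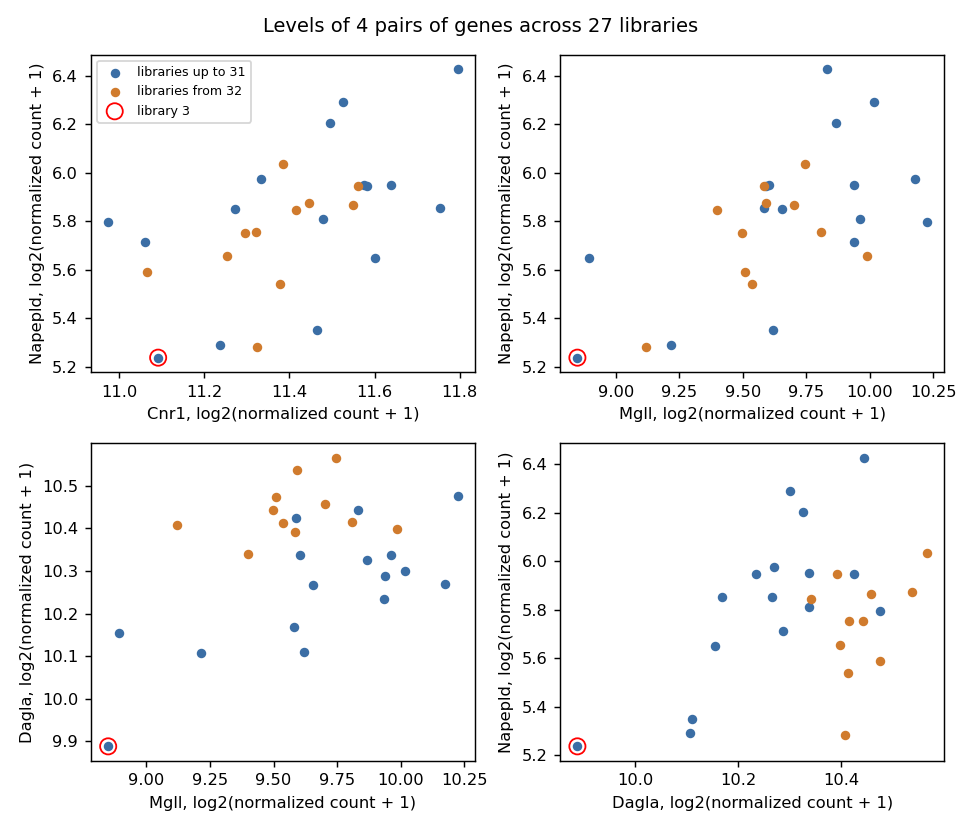
Log2(normalized count + 1) of the 2 genes of each called pair in the 27 libraries, 1 point per library, with libraries up to 31 in blue, libraries from 32 in orange and library 3 ringed in red. Library 3 is the lowest point on the vertical axis of each panel, and the lower 2 panels show the pairs of Dagla, whose pooled r without the 2 farthest libraries was 0.06 and 0.16.

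A further 3 pairs, of both lipases of 2-AG synthesis and Abhd6, had a high pooled rho that the fits with the block did not call. Spearman's rho was 0.58 for Dagla with Daglb (permutation p = 0.00190, r = 0.46, permutation p = 0.0158), 0.57 for Daglb with Abhd6 (permutation p = 0.00221, r = 0.43, permutation p = 0.0262) and 0.50 for Dagla with Abhd6 (permutation p = 0.00777, r = 0.51, permutation p = 0.00660). Dagla, Daglb and Abhd6 were the 3 genes with the lowest unadjusted p between the blocks, all higher in the libraries from 32. Centred on the blocks, rho was 0.29, 0.41 and 0.16. Within the libraries up to 31 it was 0.40, 0.51 and 0.49 (permutation p = 0.125, 0.0456 and 0.0594), and within those from 32 it was 0.12, 0.33 and -0.25. Without the 2 farthest libraries r was 0.59, 0.35 and 0.29.

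No pair among the 3 hydrolases of 2-AG was called by edgeR. Mgll with Abhd6, both 2-AG hydrolases, had a rho of -0.29 (permutation p = 0.136, r = -0.10, permutation p = 0.628), with 0.06 in the libraries up to 31 and -0.58 in those from 32, where r was -0.66 (permutation p = 0.0247). Without library 3, rho was -0.45 and r -0.38. Mgll with Abhd12 had a rho of -0.23 (permutation p = 0.238) and an r of -0.38 (permutation p = 0.0499), which was -0.14 without libraries 3 and 18. This pair had an r of -0.57 in the libraries up to 31 (permutation p = 0.0223) and of -0.16 in those from 32 (permutation p = 0.637). Cnr1 was not called with either gene of 2-AG synthesis or with Mgll, with rho of -0.08 for Dagla (permutation p = 0.677), 0.04 for Daglb (permutation p = 0.842) and 0.00 for Mgll (permutation p = 0.989).

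**Figure D5:**
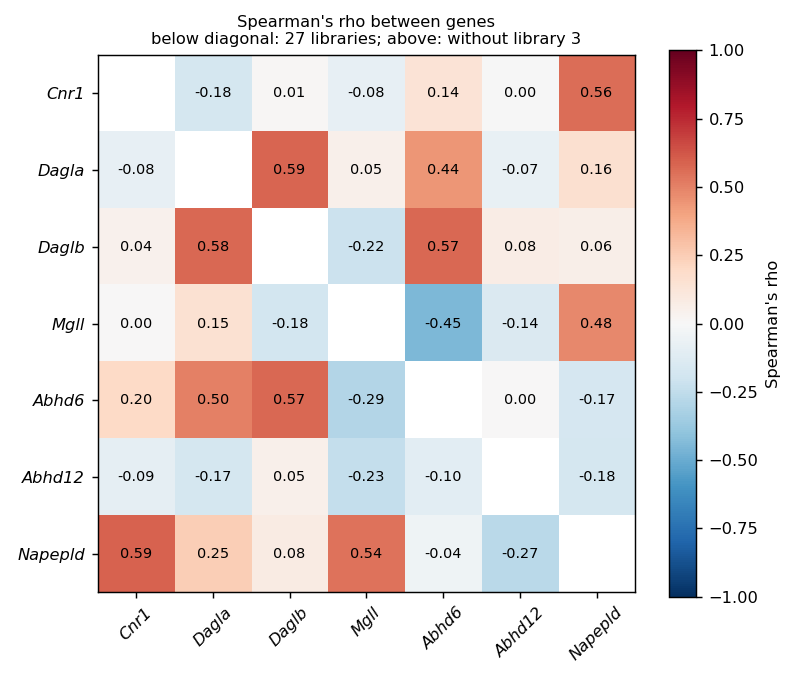
Spearman's rho for each of the 21 pairs of genes, below the diagonal over the 27 libraries and above it over 26 libraries without library 3, with red for positive and blue for negative values. Cnr1 with Napepld is the highest at 0.59, and Mgll with Abhd6 the lowest at -0.29 over all libraries.

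The genes with the most similar pattern over the 27 libraries differed between members. For Cnr1 they included Fam8a1 (rho 0.93) and Syt4, a synaptotagmin (0.92). For Mgll they included Ttbk1, a tau kinase (0.94), and Kcnj10, a potassium channel of glia (0.92). For Dagla they were Map6, which stabilizes microtubules (0.91), Grin1, the obligatory NMDA receptor subunit (0.90), and Atp6v0a1, a subunit of the vacuolar proton pump (0.90). For Napepld they included Hivep2 (0.85) and Kcnf1 (0.85).

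The remaining 3 genes had less similar neighbours. The closest was Rbm22 for Daglb (0.76), followed by Csrnp2 (0.75) and Dusp7 (0.74), LOC100911367 for Abhd6 (0.75), followed by Stambp (0.72) and Ajap1 (0.72), and Eif1ad for Abhd12 (0.75), followed by Amdhd2 (0.73) and Rab5c (0.71). Absolute rho reached 0.5 with 20.8% of all genes for Dagla, 20.2% for Cnr1, 14.6% for Napepld, 8.36% for Mgll, 6.97% for Daglb, 5.16% for Abhd12 and 4.38% for Abhd6. The points of all these correlations are the same 27 libraries, with their differences in depth, and the values are descriptions without a test.

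Of 27 other genes of endocannabinoid signaling, 21 passed the filter on low counts. Gpr55, Sgip1 and Pla2g4e were listed at 0, and Gpr18, Plaat5 and Gdpd3 had too few reads. With the excitatory neuron score 11 of the 21 were called, against 27.2% of all genes, with a median log2 change of 0.07 per SD. The 9 that rose include receptors and enzymes that drive 2-AG synthesis, the glutamate receptor Grm5 (0.41), the muscarinic receptor Chrm1 (0.19) and the phospholipase Plcb1 (0.23), as well as Ptgs2, a cyclooxygenase that oxidizes 2-AG and anandamide (0.38), and Gnao1, a G protein subunit coupled to CB1 (0.17). Fabp7, a lipid carrier of astrocytes, fell by 0.24 and Gnai2 fell by 0.10, both on the log2 scale per SD. Without library 3, Grm5 and Gnai2 were no longer called (log2 changes 0.26 and -0.06, edgeR adjusted p = 0.0876 and 0.115). Within the libraries from 32 none of the 20 tested there was called by edgeR, and 5 had an unadjusted p under 0.05. With the GABAergic neuron score 7 of the 21 were called, against 19.5% of all genes, 5 higher and 2 lower, including Grm5 (log2 change 0.45) and Ptgs2 (0.35). Across all 9 lists, 23 of 189 tests of these genes were called, against 6.12% of the tests of all genes.

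The level of Cnr1 was followed by 10 of these 21 genes and that of Napepld by 11, against 28% and 28.2% of all genes, while 6 were called with Dagla (27.4% of all genes), 4 with Mgll (22.5%), 1 with Abhd12 (11.9%), and none by edgeR with Daglb or Abhd6, where 4 and 6 had an unadjusted p under 0.05. Under other settings edgeR called Grm5 with Daglb in the libraries from 32 (log2 change -0.44, edgeR adjusted p = 0.0345) and Gnao1 with Abhd6 with no depth block term (0.14, edgeR adjusted p = 0.0421). Per SD of Cnr1, Plcb1 rose by a log2 change of 0.22 (SE 0.032, edgeR adjusted p = 1.14e-05) and Gnai1, a G protein subunit that CB1 acts through, by 0.14 (SE 0.026, edgeR adjusted p = 1.67e-04), whereas Gnai2 fell by 0.13 (SE 0.021, edgeR adjusted p = 4.37e-05). In the libraries from 32 alone none of these 3 was called, at log2 changes of 0.14, 0.06 and -0.03 (edgeR adjusted p = 0.0870, 0.341 and 0.567). Per SD of Mgll, Cnrip1, which encodes a protein that binds the tail of CB1, fell by 0.09 on the log2 scale (SE 0.020, edgeR adjusted p = 0.00259), with -0.08 and no call in the libraries from 32 (edgeR adjusted p = 0.442). Grm5 was also the most variable of the 21 genes, from 47.4 normalized counts in library 3 to 492 in library 12 with a median of 252, an SD of 0.71 on the log2 scale that 97.4% of all genes undercut. Between the depth blocks 4 of the 21 were called, against 18.1% of all genes, with Trpv1, an ion channel that anandamide opens (log2 difference 0.37), and Plcb4 (0.20) higher from 32, and Gnai2 (-0.22) and Fabp5 (-0.22), a carrier of anandamide, lower. Trpv1 was no longer called without libraries 12 and 20 (0.33, edgeR adjusted p = 0.0766), and Fabp5 was not without library 3 (-0.17, edgeR adjusted p = 0.0549) or with no filter on low counts (-0.22, edgeR adjusted p = 0.0529). Gnao1 was gained, higher from 32, without library 3, library 26, or libraries 12 and 20 (edgeR adjusted p = 0.0173, 0.0338 and 0.0378). Chrm1 was gained, also higher, without library 3 or libraries 12 and 20 (edgeR adjusted p = 0.0413 and 0.0407).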

How the data were processed

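The counts are reads per gene as deposited by the authors, without normalization. The submitters' processing notes name Trimmomatic, STAR and HTSeq. Genome build and strandedness are not given in the sources used here, so reads of overlapping genes and of close paralogs may be shared. All 27 columns were used. Symbols were matched to NCBI gene IDs through the RefSeq list of GRCr8 (28157 of 36865 rows, with 99.74% of the counts). A total of 436 rows are split by locus.

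Levels were normalized with DESeq2 size factors (version 1.42.0), and logs were taken as log2(normalized count + 1), a scale on which changes of low genes are understated. Spread was tested where the mean count reached 10. Depth blocks, levels of single genes and marker scores (mean z scores of 6 genes for each of 9 lists) were tested with edgeR's quasi-likelihood test (version 4.0.16, filterByExpr, TMM, Benjamini-Hochberg over all genes, threshold 0.05), with the depth block as a term. Fits on a level or score use the covariate's own genes in no count. Correlations were tested with 100000 permutations, and these p-values were not adjusted for the number of pairs. The pooled ones were shuffled over all libraries regardless of depth block. The scripts were tested on simulated data. Without molecular identifiers, counting noise covers counting error only. Alternatives were TMM or total counts, DESeq2's Wald test, no filter on low counts, a pseudocount of 0.1, no block term, each block alone, and leaving out libraries 12 and 20. Leaving out library 3 or library 26, and r with each block centred, were added after seeing the data.

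The genes, lists and tests were chosen with earlier results of these data known. The genes named are the 8 members, the listed pathway and marker genes, and the 3 genes with the highest rho for each member. Some genes that this rule names are not reported here. Analyses ran in R 4.3.3 and Python 3.11.15 (scipy 1.17.1, numpy 2.4.6, matplotlib 3.10.9, pandas 2.3.3).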

Additional observations from a re-analysis of the deposited data

How the results depend on the processing

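Under the other scalings, the pseudocount of 0.1 and without library 3, the SD of log2 levels that moved most in proportion was that of Dagla, from 0.15 to 0.12 without library 3, below that of Daglb (0.14). In the libraries from 32 alone it was 0.07 for Dagla, 0.14 for Cnr1 and 0.23 for Mgll. None of the 15 log2 changes called reversed its sign under an alternative. The count of pairs called was 4, and it fell to 2 with no depth block term, to 2 in the libraries up to 31, to 0 in the libraries from 32 and to 0 without library 3, while without libraries 12 and 20 it was 3, Cnr1 with Napepld being lost. The 6 calls of members against cell type scores fell to 0 in the libraries from 32, and the 23 calls of pathway genes also fell to 0 there. The call of 1 member between the depth blocks became 2 without libraries 12 and 20 (Daglb added) and 2 without library 26 (Abhd6 added). DESeq2's Wald test and size factors changed none of the 15 calls, and leaving out library 26 changed none, whereas 9 ended without library 3, 6 with no depth block term, 4 without libraries 12 and 20, 4 in the libraries up to 31 and 1 with no filter on low counts, and 14 ended in the libraries from 32, where the block difference itself could not be fitted. The cause was not tested, except that each block alone holds fewer libraries. Napepld, with 24 to 92 reads, is limited by depth. No paired analysis was possible because all 27 libraries form 1 group.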
